A study of Mus musculus with 12 samples.

Results

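The 10 genes described here encode inflammatory cytokines and growth factors of myeloid cells: Tnf, Il1a, Il1b, Il1rn, Il6, Osm, Lif, Tgfb1, Csf1 and Il34. They were chosen by symbol, all 10 were found among the 56953 genes of the count tables, and all 10 passed the filter on low counts that left 19278 genes for testing. RNA came from mouse spinal cord in 4 groups of 3 biological replicates each. Ddx20 cKO mice carry Ddx20flox/flox alleles and the Plp-CreER transgene, and were sampled at 4 or at 4.5 weeks after tamoxifen. Control mice have the same times in their labels, which give neither their alleles nor whether they received tamoxifen. The Plp promoter drives the inducible recombinase mainly in oligodendrocyte-lineage cells, and counts per gene in whole tissue do not show which cells made a transcript.

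TNF and the interleukins IL-1α and IL-1β are the classic early cytokines of activated microglia and macrophages, and IL-1 receptor antagonist, the product of Il1rn, occupies the same receptor as both interleukins without signalling. IL-6, oncostatin M (Osm) and leukaemia inhibitory factor (Lif) share the signalling chain gp130, encoded by Il6st, and act largely through STAT3. CSF1 and IL-34 are the ligands of the CSF1 receptor, on which microglia depend for survival, and TGF-β1 is needed to keep microglia in their resting identity.

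Libraries held 33104560 to 47677267 estimated counts. The targeted gene Ddx20 had 10.2, 11.1 and 9.90 CPM (counts scaled to library size) in cKO at 4 weeks against 11.01, 9.78 and 11.1 CPM in control, and 12.4, 11.1 and 13.3 CPM in cKO at 4.5 weeks against 9.16, 10.6 and 9.71 CPM in control. The groups overlapped at 4 weeks (log2 fold change -0.03, adjusted p 0.841), and cKO was higher at 4.5 weeks (0.33, adjusted p 0.0134), so this count over the whole gene and the whole tissue goes against the labels' direction, and cKO below means the libraries labelled so. An exact 2-sided permutation test gave p of 0.9 and 0.1, where 0.1 is the smallest that 3 against 3 libraries can give. By Xist counts, cKO libraries 1 and 2 of 4 weeks were female and library 3 male, the controls of 4 weeks were male, and all 6 libraries of 4.5 weeks were female. The microglial markers (6 genes, Aif1, P2ry12, Tmem119, C1qa, Cx3cr1 and Fcrls) summed to 441 to 827 CPM in cKO at 4 weeks against 169 to 181 CPM in control, and to 2640 to 2920 CPM in cKO at 4.5 weeks against 149 to 157 CPM in control. In bulk tissue, more cells of a type and more RNA per cell cannot be told apart. The 7 monocyte and neutrophil markers (Ly6c2, Ccr2, Plac8, Chil3, S100a8, S100a9 and Ly6g) summed to 3.01 to 10.5 CPM in cKO against 4.66 to 7.20 CPM in control at 4 weeks, and to 13.8 to 24.4 CPM in cKO against 4.39 to 9.03 CPM in control at 4.5 weeks. Among them Ly6g, a neutrophil marker, had 0 counts in all 3 cKO libraries of 4 weeks and in all 3 control libraries of 4.5 weeks. Of the 6 that were tested, 2 were called higher at 4.5 weeks, Chil3 and Ccr2, where 33.3% of all genes were. Chil3 alone averaged 8.31 CPM in cKO against 0.456 CPM in control at that time. Sensory ganglion and Schwann cell markers stood apart in control library 1 of 4.5 weeks (269 CPM summed, against 7.03 and 7.57 CPM in control libraries 2 and 3), and muscle markers in control library 2 (136 CPM, against 3.19 and 12.1 CPM in control libraries 1 and 3). At 4 weeks muscle markers stood apart in cKO library 3, the male one (31.4 CPM, against 2.18 and 3.23 CPM in cKO libraries 1 and 2), and ganglion and Schwann cell markers in control library 2 (127 CPM, against 59.0 and 59.5 CPM in control libraries 1 and 3). Without either of these 2 libraries, 8 of the 10 genes were called higher in cKO at each time, as with all libraries. The 6 oligodendrocyte markers summed to 12900 to 17500 CPM in cKO against 30100 to 32400 CPM in control at 4 weeks, and to 9200 to 9980 CPM in cKO against 27400 to 27700 CPM in control at 4.5 weeks. The 6 markers of border macrophages summed to 7.67 to 28.4 CPM in cKO against 13.3 to 34.4 CPM in control at 4 weeks, and to 31.5 to 37 CPM in cKO against 5.28 to 26.6 CPM in control at 4.5 weeks. Of these 6, 2 were called higher at 4.5 weeks, Pf4 and F13a1, again beside 33.3% of all genes. F13a1 alone averaged 15.5 CPM in cKO against 3.45 CPM in control at that time. The 10 lymphocyte markers summed to at most 3.23 CPM in every library. What part these tissues or cells have in the results was not tested.

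At both times the same 8 of the 10 genes were higher in cKO cord: Tnf, Il1a, Il1b, Il1rn, Osm, Lif, Tgfb1 and Csf1. In each of these the 3 cKO libraries lay above the 3 controls at either time, while Il6 and Il34 overlapped. Tnf, Il1b, Il1rn, Osm and Il6 had at most 11 counts in any control library. They passed the filter on low counts only through cKO libraries, so their adjusted p values follow a selection on high cKO counts. Of all 19278 genes, 20.1% were called higher at 4 weeks and 33.3% at 4.5 weeks, 17.2% and 32.6% were called lower, and 24.1% and 36.8% had all 3 cKO libraries above all 3 controls. In all 8 genes the male cKO library of 4 weeks, the one with muscle markers, also lay above the male controls. With a sex term in the fit 8 genes were called higher at 4 weeks, which rests on that male cKO library. At 4.5 weeks 8 were called as well, but all libraries there were female, so the term had no sexes to compare. The median log2 fold change of the 10 genes was 3.32 at 4 weeks and 4.06 at 4.5 weeks, against 0.007 and 0.021 over all genes tested. None of the 10 was lower in cKO at either time (edgeR, with 0 also at an unadjusted p below 0.05, with DESeq2 and with limma-voom). Between the control groups none of the 10 was called (edgeR 0 higher and 0 lower, likewise 0 at an unadjusted p below 0.05, with DESeq2 and with limma-voom), where 9.53% of all genes were called higher and 7.21% lower at 4.5 weeks. The controls of 4 weeks were male and those of 4.5 weeks female, so time and sex cannot be told apart in this comparison.

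**Figure D1:**
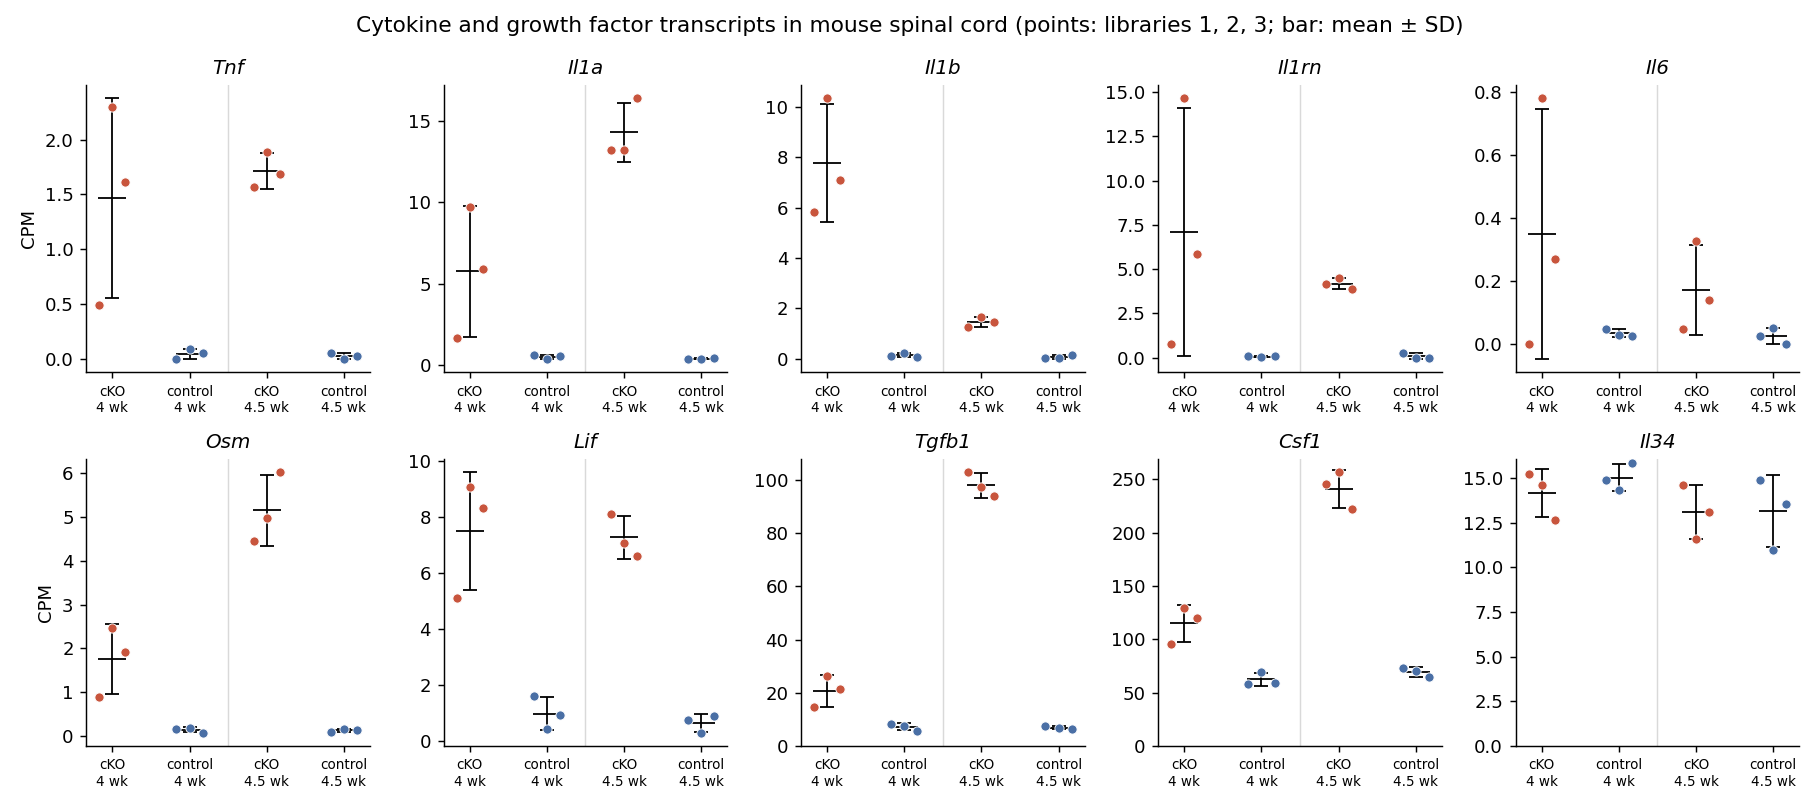
CPM of the 10 genes in each of the 12 libraries, with cKO in red and control in blue at either time, a panel per gene with its own axis. Points are libraries 1, 2 and 3 from left to right and bars are the mean and SD of 3; Il1b is highest in cKO at 4 weeks (5.82 to 10.3 CPM), Tgfb1 in cKO at 4.5 weeks (93.8 to 103 CPM), and Il34 overlaps between all groups.

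**Figure D2:**
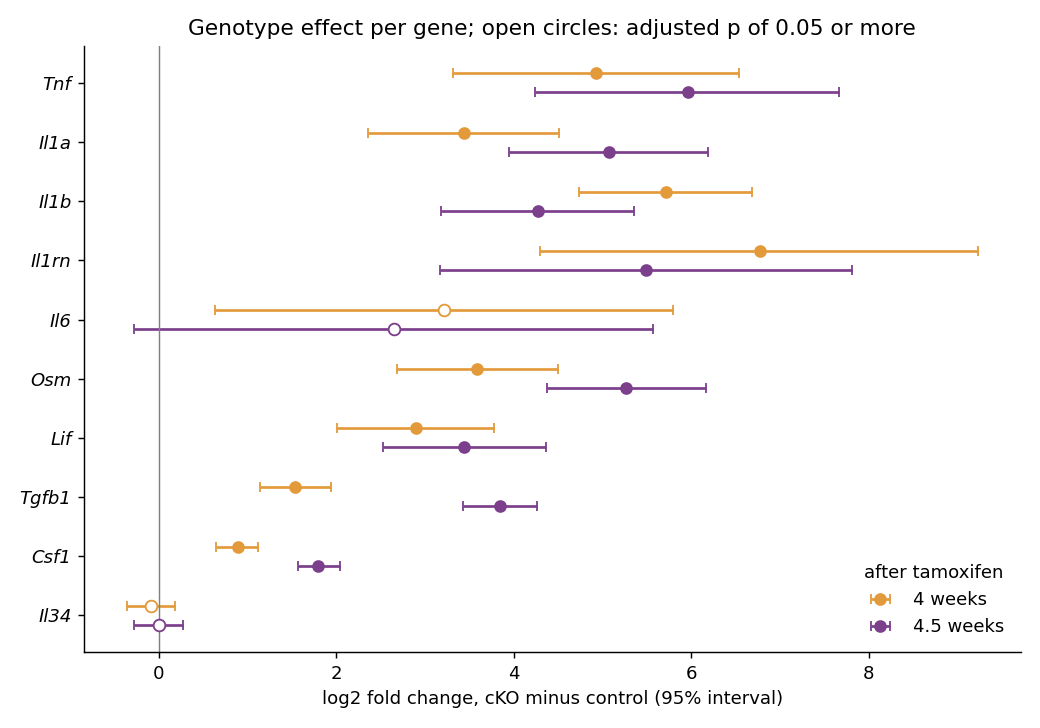
log2 fold change of cKO minus control for each gene at 4 weeks (orange) and 4.5 weeks (purple), with 95% intervals. Open circles mark genes not called, which are Il6 and Il34 at both times; the intervals of Tgfb1 at the 2 times do not overlap (3.43 to 4.26 at 4.5 weeks and 1.14 to 1.94 at 4 weeks).

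The IL-1 genes lie on mouse chromosome 2, and Il1a and Il1b moved in opposite directions between the cKO groups. The change in genotype effect between the times was not called for Il1a, Il1b or Il1rn. Il1b (ENSMUSG00000027398.14) encodes the interleukin that caspase-1 cleaves for release. It held 5.82, 10.3 and 7.11 CPM in the 3 cKO libraries at 4 weeks, against 0.123, 0.246 and 0.0767 CPM in control. The later cKO libraries held 1.27, 1.64 and 1.46 CPM against 0.0251, 0.0259 and 0.157 CPM in control. Every cKO library of either time was thus above every control, but all 3 cKO libraries of 4.5 weeks were below all 3 of 4 weeks. The log2 fold change against control was 5.72 ± 0.45 (SE) at 4 weeks (adjusted p 1.6e-06) and 4.27 ± 0.50 at 4.5 weeks (adjusted p 6.8e-06).

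Il1a (ENSMUSG00000027399.2), whose product signals through the same receptor and is also released from dying cells, moved the other way between the cKO groups. At 4 weeks it held 1.66, 9.71 and 5.92 CPM in cKO, against 0.617, 0.400 and 0.563 CPM in control (log2 fold change 3.44 ± 0.50, adjusted p 1.9e-04). At 4.5 weeks it held 13.2, 13.2 and 16.4 CPM in cKO, against 0.402, 0.415 and 0.448 CPM in control (5.07 ± 0.52, adjusted p 1.8e-06). All 3 cKO libraries of 4.5 weeks were above all 3 of 4 weeks. The ratio of Il1a to Il1b CPM was 10.4, 8.05 and 11.2 in cKO at 4.5 weeks and 0.286, 0.939 and 0.833 in cKO at 4 weeks, without overlap. In control it was 16, 16 and 2.86 at 4.5 weeks and 5, 1.62 and 7.33 at 4 weeks, from at most 8 Il1b counts a library.

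The RefSeq sequences of the 250 bases before the start of Il1a and Il1b are shown because these 2 neighbouring genes moved in opposite directions between the cKO groups. They are from build GRCm38.p6, while the counts were made on mm39, and both lie on the minus strand, at chr2:129309973-129310222 for Il1a and chr2:129371140-129371389 for Il1b. Capitals mark a match to TGANTCA, the motif of AP-1 factors.
Il1a: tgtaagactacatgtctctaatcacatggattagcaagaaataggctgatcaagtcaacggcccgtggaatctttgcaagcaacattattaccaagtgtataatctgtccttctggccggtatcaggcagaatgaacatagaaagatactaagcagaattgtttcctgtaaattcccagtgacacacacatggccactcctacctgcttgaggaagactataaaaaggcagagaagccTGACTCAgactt
Il1b: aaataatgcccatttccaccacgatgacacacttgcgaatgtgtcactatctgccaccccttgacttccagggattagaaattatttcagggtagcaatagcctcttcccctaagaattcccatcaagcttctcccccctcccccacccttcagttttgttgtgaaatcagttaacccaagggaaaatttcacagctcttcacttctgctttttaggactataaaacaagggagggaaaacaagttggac
Il1a holds 1 AP-1 match close to its start, and the Il1b window holds none of the 3 motifs searched.

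Il1rn (ENSMUSG00000026981.16) had the widest range at 4 weeks among the 9 genes detected in all 3 cKO libraries. It held 0.803, 14.7 and 5.87 CPM in cKO against 0.0740, 0.0308 and 0.0767 CPM in control, an 18.3-fold range between the cKO libraries. The log2 fold change was 6.77 ± 1.1 (adjusted p 5.8e-04), and limma-voom did not call it (adjusted p 0.0746, the highest of all alternatives, which went down to 3.3e-06). The cKO libraries of 4.5 weeks were closer together, with 4.17, 4.52 and 3.87 CPM in cKO against 0.276, 0 and 0 CPM in control (5.49 ± 1.1, adjusted p 5.5e-04). The control value of 0.276 CPM, 11 counts, was in library 1, the library with ganglion and Schwann cell markers; without it the log2 fold change was 10.32, a value that depends on how libraries at 0 are treated. The ratio of Il1rn to Il1b CPM was 3.29, 2.75 and 2.65 in cKO at 4.5 weeks and 0.138, 1.42 and 0.826 in cKO at 4 weeks, without overlap. In control Il1rn had at most 11 counts in a library, and at most 3 at 4 weeks.

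Tnf (ENSMUSG00000024401.15, chromosome 17), a trimeric cytokine shed from the membrane by the protease ADAM17, held 0.487, 2.30 and 1.61 CPM in cKO at 4 weeks against 0, 0.0923 and 0.0512 CPM in control. The log2 fold change was 4.93 ± 0.74 (adjusted p 2.5e-04). In the later groups Tnf held 1.56, 1.89 and 1.68 CPM in cKO against 0.0502, 0 and 0.0224 CPM in control (5.96 ± 0.79, adjusted p 2.1e-05). These are 192 counts in cKO against 3 in control, a ratio of 70.1 with a counting interval of 23.6 to 343. That interval leaves out the spread between libraries. The cKO libraries of the 2 times overlapped, and their SD was 0.164 CPM at 4.5 weeks against 0.913 CPM at 4 weeks.

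Among the gp130 cytokines, Osm and Lif rose and Il6 had few counts. Osm (ENSMUSG00000058755.4), a product of activated myeloid cells, held 0.889, 2.47 and 1.91 CPM in cKO at 4 weeks against 0.173, 0.185 and 0.0767 CPM in control (log2 fold change 3.59 ± 0.42, adjusted p 3.4e-05). It held 4.45, 4.98 and 6.03 CPM in cKO at 4.5 weeks against 0.1004, 0.156 and 0.134 CPM in control (5.27 ± 0.41, adjusted p 1.7e-07). Lif (ENSMUSG00000034394.15), also on chromosome 11 and known as an injury-induced factor of astrocytes, held 5.13, 9.08 and 8.34 CPM in cKO at 4 weeks against 1.60, 0.431 and 0.947 CPM in control (2.90 ± 0.41, adjusted p 1.5e-04). At 4.5 weeks Lif held 8.12, 7.09 and 6.62 CPM in cKO against 0.753, 0.311 and 0.918 CPM in control (3.44 ± 0.42, adjusted p 1.0e-05). Osm was thus higher at the later time in every cKO library, whereas the Lif values of the 2 cKO groups overlapped. Of 6 astrocyte markers, Aqp4, Gja1, Slc1a2, Slc1a3 and Fgfr3 were lower at both times, whereas Aldh1l1 was higher by 0.26 at 4 weeks (adjusted p 0.0045) and by 0.67 at 4.5 weeks (adjusted p 5.9e-07). Slc1a2, a glutamate transporter, was the most abundant of them in every group. The 6 summed to 1060 to 1880 CPM in cKO against 2660 to 3170 CPM in control at 4 weeks, and to 2030 to 2180 CPM in cKO against 3660 to 3940 CPM in control at 4.5 weeks, and their part in the result was not tested.

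Il6 (ENSMUSG00000025746.12, chromosome 5), the founding member of this family, had 0, 31 and 10 counts in cKO at 4 weeks against 2, 1 and 1 in control, and 2, 12 and 5 counts in cKO at 4.5 weeks against 1, 2 and 0 in control. Only some cKO libraries thus exceeded the controls, and library 1 of the cKO group at 4 weeks had none. The log2 fold change was 3.21 ± 1.2 at 4 weeks (95% interval 0.63 to 5.79, adjusted p 0.0507) and 2.65 ± 1.3 at 4.5 weeks (-0.28 to 5.57, adjusted p 0.101), so neither passed the threshold. At 4 weeks it passed without cKO library 1 (adjusted p 0.00546), with DESeq2 (0.0472) and with no filter on low counts (0.0395), with alternatives spanning adjusted p of 0.00546 to 0.378. For 4.5 weeks, among the alternatives that could be fitted, Il6 passed without cKO library 1 of 4 weeks (adjusted p 0.0311) and in no other (up to 0.343). Summed over libraries, 19 counts in cKO against 3 in control at 4.5 weeks gave a ratio of 6.93. Its counting interval of 2.04 to 36.6 leaves out the spread between libraries, and cKO library 2 held 12 of the 19 counts.

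Tgfb1 (ENSMUSG00000002603.16, chromosome 7), which is secreted in a latent form and acts on both microglia and astrocytes, rose at 4 weeks and further at 4.5 weeks. It held 14.4, 26.4 and 21.2 CPM in cKO at 4 weeks against 8.14, 7.54 and 5.68 CPM in control. The later libraries had 103, 97.4 and 93.8 CPM in cKO against 7.38, 6.80 and 6.31 CPM in control. The 3 cKO libraries of 4.5 weeks were within 1.10-fold of each other and each above every cKO library of 4 weeks. The log2 fold change was 1.54 ± 0.19 at 4 weeks (adjusted p 4.6e-05) and 3.85 ± 0.19 at 4.5 weeks (adjusted p 3.6e-09).

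The CSF1 receptor ligands differed from each other. Csf1 (ENSMUSG00000014599.11, chromosome 3) held 95.7, 129.8 and 119.6 CPM in cKO at 4 weeks against 57.9, 69.7 and 59.3 CPM in control (log2 fold change 0.89 ± 0.11, adjusted p 5.0e-05). Later it held 245, 257 and 222 CPM in cKO against 73.1, 70.1 and 64.4 CPM in control (1.80 ± 0.11, adjusted p 1.7e-08). Il34 (ENSMUSG00000031750.16, chromosome 8), a ligand made mainly by neurons in the brain, held 15.2, 14.6 and 12.6 CPM in cKO at 4 weeks against 14.9, 14.3 and 15.8 CPM in control. In the later groups it held 14.6, 11.6 and 13.1 CPM in cKO against 14.9, 10.9 and 13.5 CPM in control. Its log2 fold change had a 95% interval of -0.36 to 0.18 at 4 weeks (adjusted p 0.625) and -0.28 to 0.27 at 4.5 weeks (adjusted p 0.984). The ratio of Csf1 to Il34 CPM was 6.30, 8.90 and 9.47 in cKO against 3.89, 4.87 and 3.74 in control at 4 weeks, and 16.8, 22.2 and 17 in cKO against 4.90, 6.40 and 4.76 in control at 4.5 weeks. The neuronal markers Rbfox3, Snap25, Syt1, Tubb3, Nefl and Chat summed to 4780 to 5130 CPM in cKO against 5260 to 5950 CPM in control at 4 weeks, and to 1830 to 1940 CPM in cKO against 6270 to 6550 CPM in control at 4.5 weeks, when all 6 of them were lower.

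The upstream windows of Csf1 and Il6 are shown because Csf1 was called and Il6 was not, while both windows hold a match to the kappa B motif of NF-κB factors, which is GGGA, any 4 bases and CC. They lie at chr3:107760470-107760719 on the minus strand for Csf1 and at chr5:30012864-30013113 on the plus strand for Il6, from RefSeq on GRCm38.p6. Capitals mark kappa B matches and, at the left end of Il6, an AP-1 match.
Csf1: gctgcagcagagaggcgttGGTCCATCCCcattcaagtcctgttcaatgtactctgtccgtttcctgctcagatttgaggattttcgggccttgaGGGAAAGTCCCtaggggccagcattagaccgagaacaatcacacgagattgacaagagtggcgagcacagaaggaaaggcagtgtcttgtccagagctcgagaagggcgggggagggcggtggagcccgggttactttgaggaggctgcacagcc
Il6: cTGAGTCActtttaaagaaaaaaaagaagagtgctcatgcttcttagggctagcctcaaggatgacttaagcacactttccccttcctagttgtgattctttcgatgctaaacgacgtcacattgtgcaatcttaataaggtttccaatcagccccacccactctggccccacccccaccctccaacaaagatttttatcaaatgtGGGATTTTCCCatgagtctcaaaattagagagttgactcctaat
RefSeq windows were found for 8 of the 10 genes (10 windows, of which Il1rn has 3), and Osm and Il34 were not among them. Each 250-base window was searched on both strands for kappa B, AP-1 (TGANTCA) and STAT (TTCNNNGAA) motifs. A kappa B match stood before Il1rn, Il6, Lif, Tgfb1 and Csf1, in 5 of the 10 windows, against 17.6% of the 32851 windows in the table. An AP-1 match stood before Il1a, Il1rn, Il6 and Lif, in 4 of the 10 windows, against 6.75% of windows, and a STAT match in 0 of the 10, against 7.02%. In Csf1 and Il6 a kappa B match on 1 strand overlapped another on the opposite strand, shifted by 1 base. A match is a description of letters and not of binding.

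Relative to transcript length, the order of the 10 genes was led by Csf1 in every group. Levels were divided by the longest coding transcript of each gene in GENCODE M21. In cKO at 4.5 weeks Csf1 averaged 57.8 ± 4.28 CPM per kilobase (SD, n = 3) and Tgfb1 45.1 ± 2.17, ahead of Il34 (7.29 ± 0.834) and Il1a (7.23 ± 0.928), which did not differ beyond their spread. In control at 4.5 weeks Csf1 averaged 16.6 ± 1.06, Il34 7.31 ± 1.12 and Tgfb1 3.14 ± 0.246 CPM per kilobase, and each of the other 7 averaged at most 0.214. In cKO at 4 weeks Csf1 averaged 27.5 ± 4.19 CPM per kilobase, and Tgfb1 (9.51 ± 2.76), Il34 (7.87 ± 0.748) and Il1b (5.72 ± 1.72) followed with overlapping ranges for neighbours in that order. In control at 4 weeks the order was again Csf1 (14.9 ± 1.54), Il34 (8.36 ± 0.429) and Tgfb1 (3.27 ± 0.590). Il6 had the lowest mean in all 4 groups. Its range lay below that of the next gene in both cKO groups, whereas in both control groups the ranges overlapped and Il6 had 4 counts in all at 4 weeks and 3 at 4.5 weeks, so its place there is not resolved.

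The cKO libraries of 4 weeks differed among themselves in a regular order. In 9 of the 10 genes library 1 was lowest and library 2 highest, and only Il34 had another order. The ratio of highest to lowest cKO library at 4 weeks was 1.36 for Csf1, 1.77 for Lif, 1.78 for Il1b, 1.83 for Tgfb1, 2.78 for Osm, 4.71 for Tnf, 5.84 for Il1a and 18.3 for Il1rn. At 4.5 weeks the same ratio was at most 1.36 in these 8 genes, and no order of libraries held for more than 3 of the 10. Library 1 of the cKO group at 4 weeks also had the lowest microglial marker sum (441 CPM, against 827 and 795 CPM in cKO libraries 2 and 3). The part of cell number in this order was not tested.

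Between the cKO groups, 4 genes were higher at 4.5 than at 4 weeks and 1 was lower, where 27.2% and 28.8% of all genes were called higher and lower. The same 5 had no overlap between the cKO groups, as had 30.6% of all genes in the higher and 31.3% in the lower direction. Tgfb1 was higher by 2.24 ± 0.18 on the log2 scale (adjusted p 3.6e-07), Osm by 1.55 ± 0.32 (adjusted p 0.00107), Il1a by 1.30 ± 0.41 (adjusted p 0.016) and Csf1 by 1.07 ± 0.11 (adjusted p 2.9e-06). Il1b was lower, with a log2 difference of -2.41 ± 0.35 (adjusted p 6.7e-05). The call of Il1a was lost without cKO library 3 of 4.5 weeks (adjusted p 0.0519) and against a 1.5-fold change (0.0971, the highest of all alternatives, which went down to 0.00122). For the other members not called, the 95% intervals of the log2 difference were -0.86 to 1.29 for Tnf, -0.83 to 0.73 for Lif, -0.38 to 0.16 for Il34, -2.35 to 0.82 for Il1rn and -3.08 to 0.99 for Il6. Il1rn was called lower without cKO library 1 of 4 weeks (adjusted p 0.0458).

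The change in genotype effect between the times, which also takes in the controls, was called for 3 genes, all with the larger effect at 4.5 weeks (18.7% of all genes were called in that direction and 21.9% in the other). Controls were male at 4 weeks and female at 4.5 weeks, so this comparison does not separate time from sex. The effect of Tgfb1 was larger by 2.30 ± 0.26 (adjusted p 1.9e-05), that of Csf1 by 0.92 ± 0.15 (adjusted p 3.8e-04) and that of Osm by 1.68 ± 0.63 (adjusted p 0.0499). Osm missed the threshold with limma-voom (adjusted p 0.142), with a sex term (0.135), with upper quartile scaling (0.053), against a 1.5-fold change (0.185) and in 9 of the 12 fits without 1 library, with alternatives spanning adjusted p of 0.0182 to 0.189. Neither Il1b (-1.45 ± 0.80, adjusted p 0.175) nor Il1a (1.63 ± 0.71, adjusted p 0.0857) was called in this comparison. Il1a was called without cKO library 1 (adjusted p 0.0139) or 2 (0.00995) of 4 weeks and with no filter on low counts (0.0443), with alternatives spanning 0.00995 to 0.279. When both control libraries of 4.5 weeks with ganglion or muscle markers were dropped, an alternative chosen after the data were seen, Il1b was called (-2.54, adjusted p 0.0306, against up to 0.983 in other alternatives).

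Set against the summed microglial markers, the genes showed different patterns. Per 1000 CPM of those 6 markers, Il1b held 13.2, 12.5 and 8.94 CPM in cKO at 4 weeks against 0.682, 1.37 and 0.454 CPM in control. In the later groups it held 0.434, 0.574 and 0.553 CPM in cKO against 0.160, 0.174 and 1.02 CPM in control, so the groups overlapped. Tgfb1 had lower cKO values without overlap at both times on this scale, averaging 30.4 ± 3.26 in cKO against 40.2 ± 5.89 in control at 4 weeks and 35.0 ± 0.757 in cKO against 44.6 ± 2.97 in control at 4.5 weeks (SD, n = 3). Csf1 was lower on this scale, at 175 ± 36.8 in cKO against 353 ± 33.5 in control at 4 weeks and 86.0 ± 3.38 in cKO against 452 ± 27.2 in control at 4.5 weeks. Il1a was higher, at 7.64 ± 3.97 in cKO against 2.99 ± 0.665 in control at 4 weeks and 5.12 ± 0.948 in cKO against 2.76 ± 0.187 in control at 4.5 weeks. The markers themselves did not change alike: at 4.5 weeks P2ry12 rose by 0.73 and Fcrls by 5.48 on the log2 scale. C1qa was the largest part of the cKO sum at that time, averaging 1745 CPM. In control it averaged 42.7 CPM, below Cx3cr1 at 48.2 CPM. The ratio thus depends on the markers summed and is given as a description with no test.

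**Figure D3:**
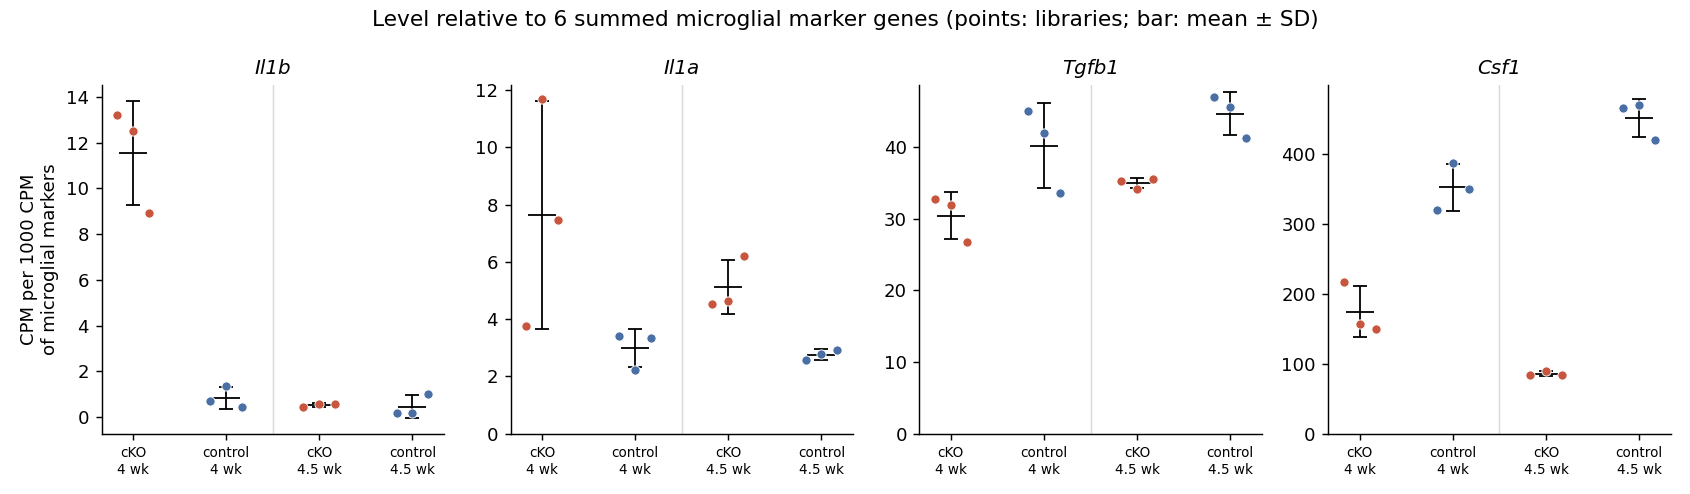
CPM of Il1b, Il1a, Tgfb1 and Csf1 per 1000 CPM of 6 summed microglial marker genes in each library, cKO in red and control in blue, with mean and SD of 3. Il1b stands apart in cKO at 4 weeks (8.94 to 13.2), Tgfb1 lies between 26.7 and 47.0 in all 12 libraries, and Csf1 is lower in cKO at both times.

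Most receptor genes for these ligands were higher in cKO cord. Of 14, 9 were higher and 3 lower at 4 weeks (median log2 fold change 0.96), where 20.1% of all genes were called higher and 17.2% lower. At 4.5 weeks 9 were higher and 1 lower (median 2.54), where 33.3% of all genes were called higher and 32.6% lower. Tnfrsf1a, the TNF receptor found on most cells, averaged 88.5 ± 16 CPM in cKO at 4 weeks against 24.1 ± 2.9 CPM in control (1.88 ± 0.12, adjusted p 3.4e-07). Csf1r, the receptor shared by CSF1 and IL-34, averaged 252 ± 36 CPM in cKO against 103 ± 4.7 CPM in control at 4 weeks (1.29 ± 0.10, adjusted p 1.9e-06) and 909 ± 100 CPM in cKO against 99.3 ± 2.6 CPM in control at 4.5 weeks (3.19 ± 0.11, adjusted p 2.2e-10). Tnfrsf1b, the TNF receptor of immune cells, averaged 107 ± 1.9 CPM in cKO against 5.52 ± 0.27 CPM in control at 4.5 weeks (4.28 ± 0.13, adjusted p 1.1e-10).

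The chains of the gp130 group went in both directions. Osmr, a chain for oncostatin M, was higher by 2.06 ± 0.21 at 4 weeks and 2.66 ± 0.21 at 4.5 weeks (adjusted p 1.1e-05 and 1.8e-07). Il6ra, the chain that binds IL-6, was higher by 1.03 ± 0.14 and 3.16 ± 0.15 (adjusted p 1.5e-04 and 2.3e-09). Lifr, the LIF receptor, was lower at 4 weeks (-0.28 ± 0.073, adjusted p 0.01) and at 4.5 weeks, when it averaged 65.3 ± 4.7 CPM in cKO against 112 ± 5.3 CPM in control (-0.78 ± 0.073, adjusted p 8.5e-07). Il6st, which encodes gp130, was lower at 4 weeks (-0.31 ± 0.11, adjusted p 0.0424) and not called at 4.5 weeks (-0.04, adjusted p 0.736). Ptprz1, a phosphatase of glia that also binds IL-34, was lower at 4 weeks (-0.55 ± 0.089, adjusted p 4.6e-04) and not called at 4.5 weeks (0.12, adjusted p 0.262). The shared IL-1 receptor chain Il1rap (-0.15 at 4 weeks, -0.16 at 4.5 weeks) and the decoy receptor Il1r2 (1.61 and 1.17) were not called at either time.

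Genes whose products process or release these cytokines were also mostly higher. Of 13, 7 were higher and 1 lower at 4 weeks (median 0.34; all genes 20.1% and 17.2%), and 10 higher and 1 lower at 4.5 weeks (median 1.74; all genes 33.3% and 32.6%). Pycard, the inflammasome adaptor, averaged 16.3 ± 5.9 CPM in cKO against 3.14 ± 0.21 CPM in control at 4 weeks and 42.7 ± 3.4 CPM in cKO against 2.62 ± 0.29 CPM in control at 4.5 weeks (2.37 ± 0.23 and 4.03 ± 0.24, adjusted p 8.4e-06 and 1.5e-08). Casp1, the protease that matures IL-1β, was higher at 4 weeks by 1.05 ± 0.15 (adjusted p 1.3e-04). Adam17, the TNF-shedding protease, averaged 86.5 ± 7.8 CPM in cKO against 26 ± 1.2 CPM in control at 4.5 weeks (1.74 ± 0.080, adjusted p 1.9e-09). Itgb8, an integrin chain that activates latent TGF-β, was lower at 4 weeks (-0.56 ± 0.17, adjusted p 0.0213) and not called at 4.5 weeks (-0.24, adjusted p 0.227), Ltbp3, a latent TGF-β binding protein, was lower at 4.5 weeks (-0.24 ± 0.064, adjusted p 0.00544), and Ltbp1, of the same family, was not called at 4.5 weeks (0.11).

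Targets of STAT3 and NF-κB were mostly higher at both times. Of 10 STAT3 targets, 9 were higher at 4 weeks (median 1.82) and 10 at 4.5 weeks (median 2.78), where 20.1% and 33.3% of all genes were called higher. Timp1, an inhibitor of matrix proteases, averaged 20.8 ± 12 CPM in cKO against 1.15 ± 0.36 CPM in control at 4 weeks and 65.7 ± 8.7 CPM in cKO against 0.423 ± 0.16 CPM in control at 4.5 weeks (4.19 ± 0.45 and 7.29 ± 0.52, adjusted p 2.0e-05 and 7.0e-08), and the transcription factor gene Cebpd was higher by 2.60 ± 0.25 and 3.54 ± 0.26 (adjusted p 7.4e-06 and 9.4e-08). The exception at 4 weeks was the kinase gene Pim1 (0.33, adjusted p 0.28). Of 12 NF-κB targets, 8 were higher at 4 weeks (median 0.83) and 11 at 4.5 weeks (median 1.66), beside the same shares of all genes, with Icam1, an adhesion molecule, at 47.4 ± 19 CPM in cKO against 4.42 ± 0.84 CPM in control at 4 weeks (3.43 ± 0.34, adjusted p 9.5e-06). Nfkb2, an NF-κB subunit gene, was higher at 4 weeks by 1.37 ± 0.20 (adjusted p 1.6e-04) and Tnfaip2 at 4.5 weeks by 3.43 ± 0.22 (adjusted p 2.3e-08), with Tnfaip3, a brake on NF-κB, at 30.9 ± 2.5 CPM in cKO against 4.53 ± 0.93 CPM in control at 4.5 weeks (2.77 ± 0.19, adjusted p 5.3e-08). The 4 not called at 4 weeks were Nfkbie (0.26), Traf1 (0.43), Vcam1 (0.08) and Ptgs2 (1.14), and Traf1 (0.49) was not called at 4.5 weeks.

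Of 8 TGF-β targets tested, 3 were higher and 1 lower at 4 weeks (median 0.14), where 20.1% of all genes were called higher and 17.2% lower, so the counts at 4 weeks were not far from those shares. At 4.5 weeks 7 were higher (median 1.06), where 33.3% of all genes were. Ski, a repressor of SMAD signalling, averaged 203 ± 10 CPM in cKO against 100 ± 3.5 CPM in control at 4.5 weeks (1.02 ± 0.057, adjusted p 8.2e-09). Tgif1, a SMAD corepressor gene, averaged 23.9 ± 2.7 CPM in cKO against 2.05 ± 0.50 CPM in control at 4.5 weeks (3.55 ± 0.27, adjusted p 1.2e-07). It was also higher at 4 weeks by 1.80 ± 0.26 (adjusted p 1.9e-04), as was Ski by 0.35 ± 0.057 (adjusted p 4.1e-04). Smad7, the inhibitory SMAD, was lower at 4 weeks (-0.21 ± 0.077, adjusted p 0.046) and not called at 4.5 weeks (-0.04). At 4 weeks Id1 (0.12), Id3 (0.05), Skil (-0.02) and Pmepa1 (0.16) were not called. The change in effect between the times was called higher in 6 of the 8 TGF-β targets, 4 of the 10 STAT3 targets and 4 of the 12 NF-κB targets, where 18.7% of all genes were, and whether the lists differ from each other was not tested.

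**Figure D4:**
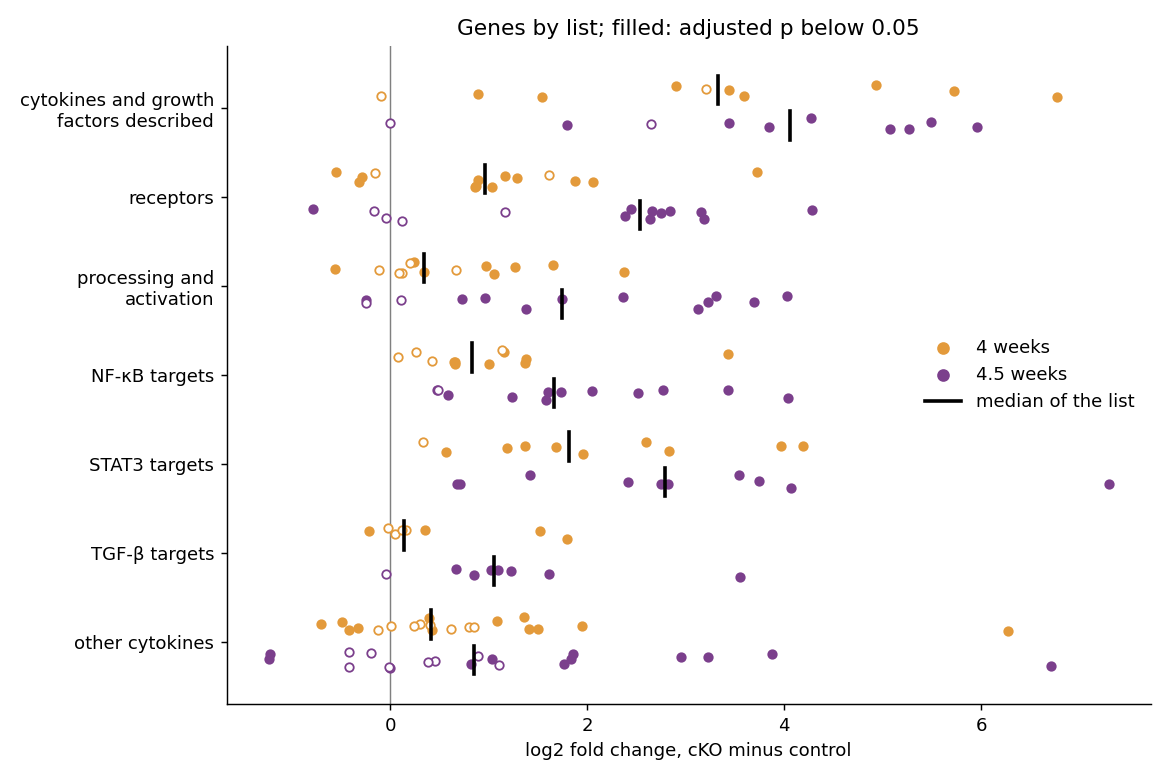
log2 fold change of cKO minus control for each tested gene of the 10 described genes, their receptors, processing and activating proteins, targets of 3 pathways, and other cytokines, at 4 weeks (orange) and 4.5 weeks (purple). Filled points were called, black bars are list medians, such as 0.96 and 2.54 for receptors and 0.14 and 1.06 for TGF-β targets. The other cytokines include Csf2, which passed the filter on low counts only through cKO libraries.

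Of 31 other cytokine genes listed, 20 were tested. At 4 weeks 8 were higher and 4 lower (median 0.42), where 20.1% of all genes were called higher and 17.2% lower, and at 4.5 weeks 9 were higher and 2 lower (median 0.85), where 33.3% and 32.6% were. The share lower at 4 weeks and the share higher at 4.5 weeks thus lay near those of all genes. At both times the genes called higher include Csf2, which passed the filter on low counts only through cKO libraries. The medians include it as well. Il18bp, a soluble trap for IL-18, averaged 32.1 ± 3.7 CPM in cKO against 3.41 ± 0.39 CPM in control at 4.5 weeks (3.23 ± 0.21, adjusted p 3.0e-08), and Ebi3, a subunit shared by IL-27 and IL-35, 7.28 ± 0.16 CPM in cKO against 0.491 ± 0.17 CPM in control (3.88 ± 0.28, adjusted p 7.8e-08). At 4 weeks these were higher by 1.36 ± 0.20 and 1.95 ± 0.27 (adjusted p 2.4e-04 and 1.5e-04). Il33, an alarmin of oligodendrocytes and astrocytes, averaged 87.2 ± 28 CPM in cKO against 122 ± 10 CPM in control at 4 weeks (-0.49 ± 0.17, adjusted p 0.0373) and 64.3 ± 2.4 CPM in cKO against 151 ± 15 CPM in control at 4.5 weeks (-1.23 ± 0.17, adjusted p 3.0e-05). The other isoform genes of TGF-β were lower at 4 weeks, Tgfb3 with a log2 fold change of -0.70 ± 0.19 (adjusted p 0.0112) and Tgfb2 of -0.33 ± 0.12 (adjusted p 0.0425), and Tgfb3 was lower at 4.5 weeks as well (-1.22 ± 0.19, adjusted p 1.0e-04). Il18 was lower at 4 weeks (-0.42 ± 0.089, adjusted p 0.00253).

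Csf2, which encodes the growth factor GM-CSF and was chosen after its values were seen, had 2, 12 and 14 counts in cKO at 4 weeks against 0 in each control, and 13, 6 and 19 counts in cKO at 4.5 weeks against 0 in each control. Against a floor of 3 counts over the control group, the summed cKO counts were 9.37-fold higher at 4 weeks and 13.9-fold higher at 4.5 weeks. These folds leave out counting error in cKO and the spread between libraries. Csf2 passed the filter on low counts only through the cKO libraries and was chosen for this pattern, so no p is given. All 6 cKO libraries thus had counts and no control library had any.

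The genes whose level followed each of the 10 most closely over the 12 libraries were found by the root mean square difference of log2 CPM profiles, each centred on its own mean. The closest matches were for Il34, with Cept1 (0.0995) and Osgin2 (0.105), and for Csf1, with Nfe2l2 (0.102) and Flna (0.116). Tgfb1 came next, with Gcnt1 (0.108), a glycosyltransferase gene, and Cd37 (0.138), a tetraspanin gene of leukocytes. Il1a was nearest to Cd72 (0.316) and the Fc receptor gene Fcgr1 (0.322), Osm to the urokinase gene Plau (0.316) and its receptor gene Plaur (0.338), Tnf to Oas1a (0.402) and Alox5 (0.428), and Lif to Rin1 (0.431) and Creb3l1 (0.461). Il1b had the most distant nearest matches, Hist1h4h (0.608) and Pidd1 (0.730), beside Il1rn with Ifi204 (0.539) and Mnda (0.576) and Il6 with Cd274 (0.573) and Cdca3 (0.580). Tnf, Il1b, Il1rn, Il6 and Osm had at most 11 counts in any control library, and Il34 overlapped between all groups. The part of counting error in the order of these distances was not tested. The 12 libraries share the 4 groups, so the distances describe likeness of profile in these libraries and nothing more.

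RefSeq places another gene over 5 of the 10, and the library kit does not mark strand, so reads in the shared stretch cannot be told apart. Il1bos over Il1b held at most 5 counts in a library, and Gm14023 over Il1a at most 26, with 3 to 16 counts in cKO libraries and 11 to 26 in control libraries. Gm15894 and Gm15895 over Il34 held at most 10 and 14 counts, and A230098N10Rik over Il6 had 0 counts in every library. Gm40121 over Csf1 and Gm39250 over Il34 are not analysed here.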

How the data were processed

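Per the labels, mRNA libraries were made from total RNA of 12 spinal cord samples with an Illumina TruSeq kit. This kit version does not mark strand. The authors deposited estimated counts of each gene in a table per time, without scaling. The submitters' processing notes name STAR, RSEM and the mm39 build, and versions and annotation are not given in the sources used here. Between 3.25% and 3.81% of values per library were not whole, and all were rounded. Spreadsheet dates in place of 27 symbols were restored from gene identifiers.

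Counts were analysed in R 4.3.3 with edgeR 4.0.16: the filter on low counts with the 4 groups, trimmed mean of M values scaling, 1 model of all 12 libraries with a mean per group, and the quasi-likelihood F test, adjusted by Benjamini and Hochberg over 19278 genes and called below 0.05. Standard errors were derived from the F statistic. Every adjusted p is from this test unless another tool is named, and folds are cKO minus control on the log2 scale. Depth of 33104560 to 47677267 counts limits genes with few counts, and counting intervals and floors cover counting error only. The fit was tested on simulated data.

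The genes, lists and tests were chosen with earlier results of these data known. By the rule for named genes, all 10 genes were described in each comparison, with the 2 called genes of smallest p per direction and the exceptions of 4 or fewer in each list. It also named the 2 tested genes of nearest profile (mean log2 CPM of at least 1, prior count 2). Osmr, Il6ra and single cell type markers were named outside this rule. Ccn2, Itgam, Il36a and Il36g are not analysed here. Another 3 genes of the lists were left out of every sum, count and median and are not reported here. Alternatives were DESeq2 1.42.0, limma 3.58.1 (voom), other scalings and filters, each time alone, a replicate block, a sex term, a test against a 1.5-fold change, and each library left out. Replicates are called biological in the labels, without naming animals. Promoters and neighbours came from RefSeq on GRCm38.p6 and transcript lengths from GENCODE M21.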

Additional observations from a re-analysis of the deposited data

Results flagged for a closer look

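The genotype effect differed between 4.5 and 4 weeks, by a test of that difference across all genes, in 3 of the 10 genes, where 18.7% of all genes were called with a larger effect at 4.5 weeks and 21.9% with a smaller one. Because controls were male at 4 weeks and female at 4.5 weeks, this difference does not separate time from sex. The log2 fold change was larger at 4.5 weeks by 2.30 for Tgfb1 (adjusted p 1.9e-05), with all 3 cKO libraries of 4.5 weeks above all 3 of 4 weeks. It was larger by 0.92 for Csf1 (adjusted p 3.8e-04) and by 1.68 for Osm (adjusted p 0.0499), with the same separation of cKO libraries in both. The Osm difference was not called with limma-voom (adjusted p 0.142), a sex term (0.135), upper quartile scaling (0.053), against a 1.5-fold change (0.185) or in 9 of the 12 fits without 1 library, over an adjusted p of 0.0182 to 0.189 in all alternatives.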

How the results depend on the processing

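Over 23 alternatives (22 for comparisons across times), the genes called higher numbered 7 to 9 at 4 weeks and 8 to 9 at 4.5 weeks, and 3 to 4 between the cKO groups, with none lower at either time. The genes with a larger effect at 4.5 weeks numbered 1 against a 1.5-fold change, and 1 to 4 over all alternatives; those lower between the cKO groups numbered 1 to 2 with 1 library left out, and without both control libraries named for ganglion or muscle markers 1 gene had a smaller effect at 4.5 weeks. Csf1 missed a larger effect against a 1.5-fold change (adjusted p 0.0503). No called value changed sign. Of values not called, Il34 changed sign at 4.5 weeks with a minimum of 1 CPM (0.01), each time fitted alone or limma-voom (0), and when a library was left out (-0.12 to 0.09), and in the change between times (-0.03 to 0.18 without 1 library). Il1rn and Il6 changed sign in that comparison with limma-voom (1.03 and 0.61), with both controls left out (3.55 and 2.53), and without 1 library (-1.90 to 3.55 and -1.41 to 0.79). Between the cKO groups the values without 1 library were -1.30 to 0.32 for Il1rn, -1.89 to 0.31 for Il6, -0.27 to 0.11 for Lif and -0.20 to 0.69 for Tnf, and Lif was 0.03 with a sex term. The cause was not tested. Against a 1.5-fold change, all genes called numbered 1685 against 7179 at 4 weeks, 6359 against 12701 at 4.5 weeks, 2309 against 7841 for the change in effect and 3515 against 10788 between the cKO groups. With a sex term they numbered 4548 at 4 weeks and 0 between the controls, where 3227 were called without it and 0 to 3998 over all alternatives. Since the control groups differ in sex as well as time, these counts cannot be assigned to either. Il6 had no value with a minimum of 1 CPM or with each time alone. Same-numbered samples had correlations of their deviations of -0.165 to 0.057, with no differently numbered ones beside them, so these values cannot settle whether samples were paired. With a replicate block 8 and 8 genes were called higher and no call among the 10 changed. Genes with few counts in control, such as Il6 and Tnf, are limited by depth.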
